A study of Mus musculus with 12 samples.

Results

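The genes described here encode the subunits, activators and assembly chaperones of the proteasome. They were taken as every gene whose name begins with Psma, Psmb, Psmc, Psmd, Psme, Psmf or Psmg followed by a digit. The pattern found 49 of the 14264 genes measured, the same ones in both tables. Of these, 15 encode the constitutive 20S core, 17 the 19S regulatory particle, 5 the immunoproteasome with its activator PA28 alpha and beta, 3 other activators or inhibitors and 7 assembly chaperones. The 15 include Psma8, a testis-specific alpha-ring subunit that is counted with the constitutive core here. The pattern also took Psme2b, a retrocopy of Psme2, and Psmc3ip, a meiotic recombination cofactor that is no part of the proteasome, which leaves 47 proteasome genes.

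The samples were polyadenylated RNA of mouse macrophages grown from bone marrow, in 4 groups of 3 libraries each. The cells were labelled wild type with a control short hairpin (shCTRL) or carried a hairpin against MOF (shMOF), the lysine acetyltransferase that Kat8 encodes. They were either unstimulated or treated with 100 ng/ml lipopolysaccharide (LPS), a bacterial product sensed by TLR4, for 3 h. All groups carry a hairpin, the labels name a single hairpin against MOF and no rescue, and strain and age are not among the labels. Nothing says that libraries are from separate animals or cultures, and p-values therefore measure only the spread between these libraries. Each table gives shMOF against shCTRL in 1 LPS state, with no value per library, so levels per group cannot be given and depth per library is unknown.

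The proteasome degrades proteins tagged with ubiquitin. Its 20S core is a barrel in which rings of beta subunits, 3 of them catalytic (Psmb5, Psmb6 and Psmb7), lie between rings of alpha subunits. The 19S particle caps the barrel, binds ubiquitin chains and unfolds the substrate with a ring of ATPases. In immune cells, interferons induce the catalytic subunits Psmb8, Psmb9 and Psmb10, which replace Psmb5, Psmb6 and Psmb7 in newly built cores and alter the peptides offered on MHC class I. PA28 alpha and beta (Psme1 and Psme2) form an activator induced by the same signals.

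The targeted gene Kat8 was at 0.210-fold of the control unstimulated and 0.201-fold at LPS 3 h per the authors' deposited tables (Benjamini-Hochberg (BH) adjusted, p = 2.08e-101 and 4.86e-67, DESeq2). All 6 macrophage markers listed had a mean normalized count of at least 1233. Of 23 markers of other cell types 9 had a row, none above 667.4, and none of the listed T or NK cell markers did. Macrophage markers moved with the knockdown, 6 of 6 higher unstimulated and 5 of 6 at LPS 3 h, per the authors' deposited tables, with median log2 fold changes of 0.45 and 0.27. For 4 of the 6 (Itgam, Mertk, Csf1r and Adgre1) the effect was smaller with LPS by the test of the difference. Of the 9 other markers 3 were higher and 2 lower unstimulated, and 5 were higher and 1 lower at LPS 3 h. Among all genes 21.3% were higher and 17.8% lower unstimulated, and 28.1% and 20.0% at LPS 3 h. The 2 lower were the progenitor markers Kit and Cd34, with -1.81 (SE 0.38) and -0.93 (SE 0.25) per the authors' deposited table. Their mean normalized counts were 14.9 and 40.5, and Cd34 was also lower at LPS 3 h. Of 4 fibroblast or stroma markers 2 were higher unstimulated and 3 at LPS 3 h, with none lower. The part of cell composition in the values below was not tested, and in such bulk RNA fewer cells of a type cannot be told apart from less RNA per cell.

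Calls among proteasome genes were no more frequent than among all genes, and the changes were small. In unstimulated cells 7 of the 49 genes rose and 11 fell (adjusted p under 0.05) per the authors' deposited table, or 36.7%, near the 39.1% called among all genes. At LPS 3 h 5 rose and 13 fell, again 36.7%, where 48.0% of all genes were called. The 47 proteasome genes were highly expressed, with a median mean normalized count of 3331 against 446.3 for all genes. At mean normalized counts of 1000 or more, 15 of 40 members were called in each state, or 37.5%, against 55.5% of all such genes unstimulated and 66.3% at LPS 3 h. Of these 15, 6 rose and 9 fell unstimulated, against 34.6% higher and 20.9% lower among all such genes, and 5 rose and 10 fell at LPS 3 h, against 48.5% and 17.8%. No difference between members and other genes was tested.

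The size of the changes was small as well. Over those 40 members the median size of the log2 fold change was 0.10 unstimulated and 0.09 at LPS 3 h, against 0.16 and 0.20 over all 4931 genes at that level. One proteasome gene of 47, Psmb10, changed by at least 0.5 on the log2 scale unstimulated, and none did at LPS 3 h. For 25 of the 47, the 95% interval of the log2 fold change lay within 0.25 of zero in both states. Of the 47, 22 were called in neither state, 3 rose in both (Psma7, Psmb10 and Psme1), 5 fell in both (Psmc4, Psmd2, Psme3, Psmd5 and Psmg2), and Psmd3 alone was called in opposite directions.

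**Figure D1:**
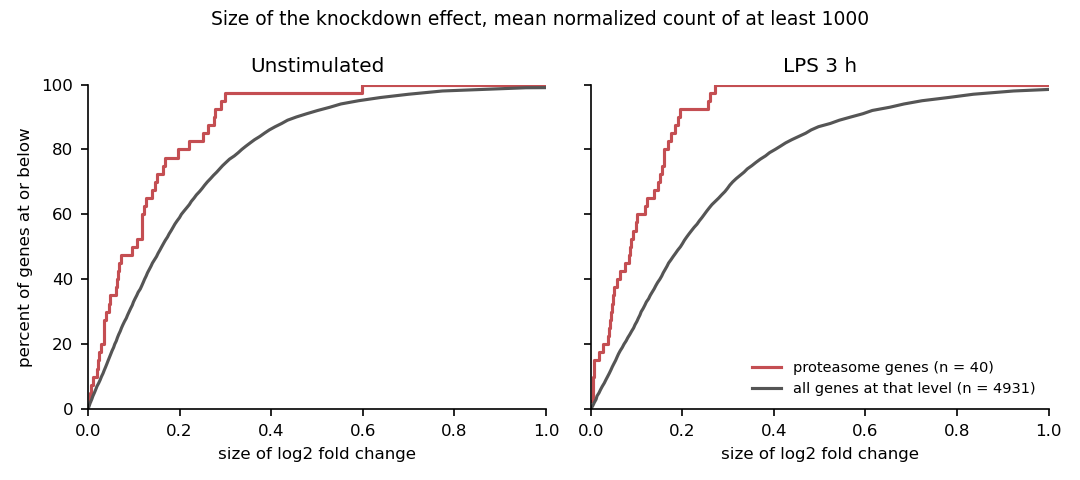
Cumulative percent of genes (vertical axis) whose log2 fold change, shMOF over shCTRL, is at or below the size on the horizontal axis, for genes at mean normalized counts of 1000 or more, unstimulated on the left and at LPS 3 h on the right. The curve of the 40 proteasome genes rises faster than that of all 4931 genes at that level, with medians of 0.10 against 0.16 and 0.09 against 0.20.

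Of the 5 immunoproteasome genes 4 rose in unstimulated knockdown cells and none fell, with a median log2 fold change of 0.28 against 0.03 for all genes, and at LPS 3 h 2 rose and none fell, with a median of 0.16 against 0.03. Among all genes 21.3% were higher unstimulated and 28.1% at LPS 3 h. At mean normalized counts of 1000 or more, where all 5 lie, these shares were 34.6% and 48.5%. The count at LPS 3 h is therefore not above the share at that level. The median log2 fold changes over all genes at that level were 0.05 unstimulated and 0.11 at LPS 3 h. The 6 macrophage markers had medians of 0.45 and 0.27, and their part in the values of this class was not tested. Psmb10, which carries the trypsin-like site of the immunoproteasome, rose by 0.60 (SE 0.09, 1.51-fold, BH-adjusted p = 1.65e-10) unstimulated in the authors' deposited table. At LPS 3 h it rose by 0.27 (SE 0.08, 1.21-fold, BH-adjusted p = 0.00167) per the authors' deposited table. The test of the difference gave -0.33 (SE 0.12, BH-adjusted p = 0.0219), so the effect was smaller with LPS. Psme1, PA28 alpha, rose in both states, by 0.30 (SE 0.06, BH-adjusted p = 8.23e-07) and 0.16 (SE 0.05, BH-adjusted p = 0.00384) per the authors' deposited tables.

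Psmb9, which takes the place of the caspase-like subunit Psmb6, rose by 0.28 (SE 0.10, BH-adjusted p = 0.0117) unstimulated per the authors' deposited table, with 0.18 (SE 0.08, BH-adjusted p = 0.0731) at LPS 3 h. Psme2, PA28 beta, rose by 0.15 (SE 0.06, BH-adjusted p = 0.0229) and had 0.06 (SE 0.05, BH-adjusted p = 0.351) per the authors' deposited tables. Psmb8, with the chymotrypsin-like site, was the member of the class with no call in either state. It had 0.04 (95% interval -0.11 to 0.18) and -0.08 (95% interval -0.20 to 0.05) per the authors' deposited tables, so that a rise as large as that of Psmb10 lies outside its interval in unstimulated cells. All 5 differences between states were negative in estimate, from -0.33 to -0.09, and that of Psmb10 alone passed. The call for Psme2 was lost after centring fold changes on their median (BH-adjusted p = 0.0809). Of the 100-base stretches in transcripts of Psme2, 18.4% also occur in the retrocopy Psme2b, and 52.0% of those in Psme2b occur in Psme2, so reads may have been shared between them. Psme2b itself had 0.12 (SE 0.18) and 0.23 (SE 0.16) per the authors' deposited tables, with no call.

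The promoters of 4 immunoproteasome genes are shown because their values run from the highest of the class, Psmb10, to no call, Psmb8. The RefSeq starts of all 4 genes lie inside their GENCODE gene spans, so the windows are not those at the outermost annotated starts. Each window runs from 250 bases before to 50 after the RefSeq start, on GRCm38.p6, 5′ to 3′ on the strand of the gene. Capitals mark matches, on either strand, to an interferon-stimulated response element core (GAAA and GAAA parted by 2 bases), a gamma-activated site (TTCNNNGAA), a CCAAT box (CCAAT) or a GC box (GGGCGG). These are chr8:105938343-105938642 on the minus strand for Psmb10, chr17:34187281-34187580 on the minus strand for Psmb9, chr14:55578244-55578543 on the plus strand for Psme1 and chr17:34197945-34198244 on the plus strand for Psmb8.
Psmb10: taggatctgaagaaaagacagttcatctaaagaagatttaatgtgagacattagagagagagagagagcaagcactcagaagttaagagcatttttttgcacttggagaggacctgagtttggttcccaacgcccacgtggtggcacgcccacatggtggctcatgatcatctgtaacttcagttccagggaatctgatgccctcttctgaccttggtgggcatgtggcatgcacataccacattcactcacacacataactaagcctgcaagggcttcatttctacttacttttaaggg
Psmb9: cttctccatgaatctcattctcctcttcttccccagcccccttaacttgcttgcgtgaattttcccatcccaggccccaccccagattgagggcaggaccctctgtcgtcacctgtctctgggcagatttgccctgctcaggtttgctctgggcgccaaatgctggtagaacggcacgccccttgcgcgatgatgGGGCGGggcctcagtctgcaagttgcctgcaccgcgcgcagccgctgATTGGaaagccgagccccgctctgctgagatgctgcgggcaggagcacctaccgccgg
Psme1: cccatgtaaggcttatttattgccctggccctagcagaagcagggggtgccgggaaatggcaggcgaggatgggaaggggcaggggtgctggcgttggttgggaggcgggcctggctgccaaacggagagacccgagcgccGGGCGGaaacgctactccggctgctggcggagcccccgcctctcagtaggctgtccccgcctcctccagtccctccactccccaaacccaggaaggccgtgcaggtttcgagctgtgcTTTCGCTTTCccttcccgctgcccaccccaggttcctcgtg
Psmb8: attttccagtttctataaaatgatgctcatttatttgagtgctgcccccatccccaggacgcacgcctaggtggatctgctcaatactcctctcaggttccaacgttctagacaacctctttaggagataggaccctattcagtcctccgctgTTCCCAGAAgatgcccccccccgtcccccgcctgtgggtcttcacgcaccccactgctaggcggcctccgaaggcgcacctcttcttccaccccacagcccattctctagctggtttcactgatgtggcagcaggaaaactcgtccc
Psmb10 held none of these motifs in its window. Psme1 held the interferon-stimulated element at position 10 after the start and a GC box at -109, Psmb8 a gamma-activated site at -97, and Psmb9 a CCAAT box at -8 and a GC box at -55. Positions count from the start and give the leftmost base of a match. Over all 32851 RefSeq windows of this length 3.44% held the interferon-stimulated core, 8.30% the gamma-activated site, 37.4% a CCAAT box and 35.7% a GC box. Over the 12563 windows of genes in the tables the share with a GC box was 61.1%. The interferon-stimulated core also lay in windows of the constitutive genes Psmb3 and Psmd4, and the gamma-activated site in that of Psmd2. Of the 41 members with a window, 5 held the interferon-stimulated core and 3 the gamma-activated site, or 12.2% and 7.32%. A match is a description of letters and not a bound site.

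The Psmb9 window overlaps that of Tap1, which encodes a subunit of the transporter that carries proteasome products to MHC class I, over 275 bases on the other strand, chr17:34187306-34187580. Tap1 was higher in both states, by 0.38 (SE 0.15, BH-adjusted p = 0.0269) and 0.39 (SE 0.13, BH-adjusted p = 0.00771) per the authors' deposited tables. Exons of the pair share 212 bases on opposite strands in GENCODE M21, and the library kit marks strand, but whether counting used it is not given in the sources used here. Exons of Psmb8 likewise share 498 bases with the antisense gene Gm20496.

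Each immunoproteasome catalytic subunit had a higher log2 fold change than the constitutive subunit it replaces, in both states. The gap between Psmb10 and Psmb7 was 0.66 unstimulated and 0.27 at LPS 3 h, between Psmb9 and Psmb6 0.32 and 0.19, and between Psmb8 and Psmb5 0.13 and 0.18. These gaps have no test, since the tables do not give how errors of different genes covary. The constitutive catalytic genes had no call unstimulated, with -0.10 (SE 0.07) for Psmb5, -0.05 (SE 0.06) for Psmb6 and -0.06 (SE 0.06) for Psmb7 in the authors' deposited table. At LPS 3 h Psmb5 fell, with -0.26 (SE 0.07, BH-adjusted p = 4.57e-04) per the authors' deposited table, while Psmb6 had -0.02 (SE 0.06) and Psmb7 0.0049 (SE 0.05). The state difference for Psmb5, -0.16 (SE 0.10, BH-adjusted p = 0.222), did not pass. Of its 100-base stretches, 22.2% recur in other annotated transcripts, so its value carries some uncertainty from read assignment.

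**Figure D2:**
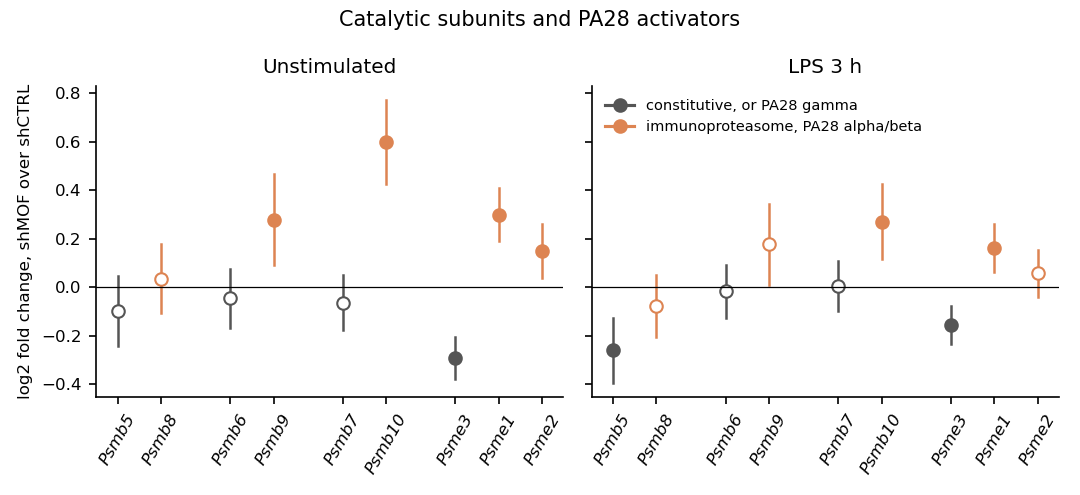
Log2 fold change, shMOF over shCTRL, of the catalytic subunits in their exchange pairs and of the PA28 activators, with 95% intervals, unstimulated on the left and at LPS 3 h on the right; filled points have an adjusted p under 0.05. Psmb10 stands highest in both panels, at 0.60 and 0.27, while Psmb8 and the constitutive catalytic genes lie near or below 0.

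Transcript levels per length placed the immunoproteasome genes other than Psmb9 among the abundant parts of the complex in these cells. The mean normalized count per kilobase of exon, over libraries the tables do not name, was 5637 for Psme2, 3071 for Psme1, 2275 for Psmb8, 2258 for Psmb10 and 491.4 for Psmb9. On the same scale Psmb6 stood at 3210, Psmb5 at 2041 and Psmb7 at 1024. Psmb9 lay below the lowest beta-ring gene, at 862.2, and the lowest 19S gene, at 587.3. Class medians were 2275 for the immunoproteasome, 1825 for the beta ring, 1560 for the 19S ATPases, 1155 for the alpha ring, 1025 for the 19S non-ATPases and 169.3 for assembly chaperones. Exon length is the union over all GENCODE M21 transcripts of a gene, and has no error here, so close neighbours in this order were not told apart.

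The constitutive 20S core was nearly flat. Of 8 alpha-ring genes 1 rose unstimulated and 2 at LPS 3 h, none fell, and the class median was -0.0052 and 0.09 on the log2 fold change scale. Among all genes 21.3% were higher and 17.8% lower unstimulated, and 28.1% and 20.0% at LPS 3 h. Psma7 rose in both states, by 0.28 (SE 0.06, BH-adjusted p = 6.19e-06) and 0.14 (SE 0.05, BH-adjusted p = 0.0176) per the authors' deposited tables. Psma3 rose at LPS 3 h by 0.12 (SE 0.05, BH-adjusted p = 0.0489) per the authors' deposited table, and unstimulated its 95% interval ran from -0.12 to 0.11. The calls at LPS 3 h of both genes were lost after centring (BH-adjusted p = 0.0710 for Psma7 and 0.155 for Psma3). Psma1, Psma2, Psma4, Psma5 and Psma6, structural members of the same ring, had no call, with log2 fold changes between -0.04 and 0.10 over both states in the authors' deposited tables. Psma8, the subunit known from testis, had a mean normalized count of 37.8, with -0.42 (SE 0.22, BH-adjusted p = 0.125) and -0.02 (SE 0.25).

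Of 7 beta-ring genes none was called unstimulated, where 39.1% of all genes were. At LPS 3 h 2 fell, or 28.6%, where 20.0% of all genes were lower. Besides Psmb5, the gene that fell was Psmb3, a structural subunit, with -0.17 (SE 0.06, BH-adjusted p = 0.0146) per the authors' deposited table. Psmb4 had 0.13 (SE 0.06, BH-adjusted p = 0.0648) unstimulated, and Psmb1 and Psmb2 lay between -0.05 and 0.06 over both states in the authors' deposited tables. No gene of the constitutive core differed between states by the test of the difference.

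Most called Psm-named genes of the 19S particle were lower in the knockdown. Unstimulated, 7 of 17 fell and 1 rose, against 17.8% lower and 21.3% higher among all genes, and at LPS 3 h 6 fell and none rose, against 20.0% and 28.1%. At mean normalized counts of 1000 or more, where all 17 lie, 20.9% of genes were lower and 34.6% higher unstimulated. At LPS 3 h these shares were 17.8% and 48.5%. The median log2 fold change of the 17 was -0.11 and -0.04. Shfm1, a 19S subunit gene outside the name pattern, rose in both states, by 0.34 (SE 0.06) and 0.30 (SE 0.05) per the authors' deposited tables. Psmd2, a large scaffold subunit of the base, fell in both states, with -0.16 (SE 0.04, BH-adjusted p = 4.89e-05) and -0.18 (SE 0.03, BH-adjusted p = 2.11e-07) per the authors' deposited tables. Psmd1, the other large scaffold, fell unstimulated only, with -0.22 (SE 0.05, BH-adjusted p = 7.10e-06) per the authors' deposited table, and had 0.0044 (SE 0.04) with LPS, a difference that passed (0.23, SE 0.06, BH-adjusted p = 0.00148).

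The 6 ATPases of the 19S base, which unfold substrates, had 2 lower unstimulated and 4 lower at LPS 3 h, with none higher, where 17.8% and 20.0% of all genes were lower. Psmc4 fell in both states, with -0.15 (SE 0.05, BH-adjusted p = 0.00588) and -0.20 (SE 0.04, BH-adjusted p = 1.77e-05) per the authors' deposited tables. Psmc6 fell unstimulated, with -0.20 (SE 0.06, BH-adjusted p = 0.00393) per the authors' deposited table, and had 0.0083 (SE 0.05) at LPS 3 h. Psmc1 had 0.07 (SE 0.05) unstimulated and fell at LPS 3 h with -0.12 (SE 0.05, BH-adjusted p = 0.0242) per the authors' deposited tables. Both differences passed, at 0.20 (SE 0.08, BH-adjusted p = 0.0397) for Psmc6 and -0.19 (SE 0.07, BH-adjusted p = 0.0283) for Psmc1, with opposite signs. Psmc2 and Psmc5 fell at LPS 3 h, with -0.15 (SE 0.05) and -0.16 (SE 0.05) per the authors' deposited table, and Psmc3 was not called in either state.

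Among the 11 non-ATPase subunits 5 fell and 1 rose unstimulated, against 17.8% and 21.3% of all genes, and 2 fell at LPS 3 h, a share near the 20.0% of all genes. Psmd11, a lid subunit, had the lowest value of the 19S particle unstimulated, at -0.26 (SE 0.04, BH-adjusted p = 1.18e-08) per the authors' deposited table, and -0.04 (SE 0.04) at LPS 3 h. The lid subunit gene Psmd8 fell unstimulated, with -0.11 (SE 0.04, BH-adjusted p = 0.0396) per the authors' deposited table, and had 0.09 (SE 0.04, BH-adjusted p = 0.0594) at LPS 3 h. Both differences passed, at 0.22 (SE 0.06, BH-adjusted p = 9.39e-04) for Psmd11 and 0.19 (SE 0.06, BH-adjusted p = 0.00554) for Psmd8. Psmd14, the deubiquitinase that removes ubiquitin chains from substrates, fell unstimulated with -0.17 (SE 0.06, BH-adjusted p = 0.0155) per the authors' deposited table, and its difference did not pass (0.16, SE 0.08, BH-adjusted p = 0.111).

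Psmd3, a lid subunit, was the one proteasome gene called in opposite directions. It rose unstimulated by 0.14 (SE 0.04, BH-adjusted p = 0.00612) and fell at LPS 3 h with -0.19 (SE 0.04, BH-adjusted p = 1.67e-05) per the authors' deposited tables. The difference, -0.33 (SE 0.06, BH-adjusted p = 8.41e-07), had the smallest p of the members. The other non-ATPase genes, the ubiquitin receptor gene Psmd4 and the lid genes Psmd6, Psmd7, Psmd12 and Psmd13, had no call, with log2 fold changes from -0.12 to 0.08 in the authors' deposited tables.

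**Figure D3:**
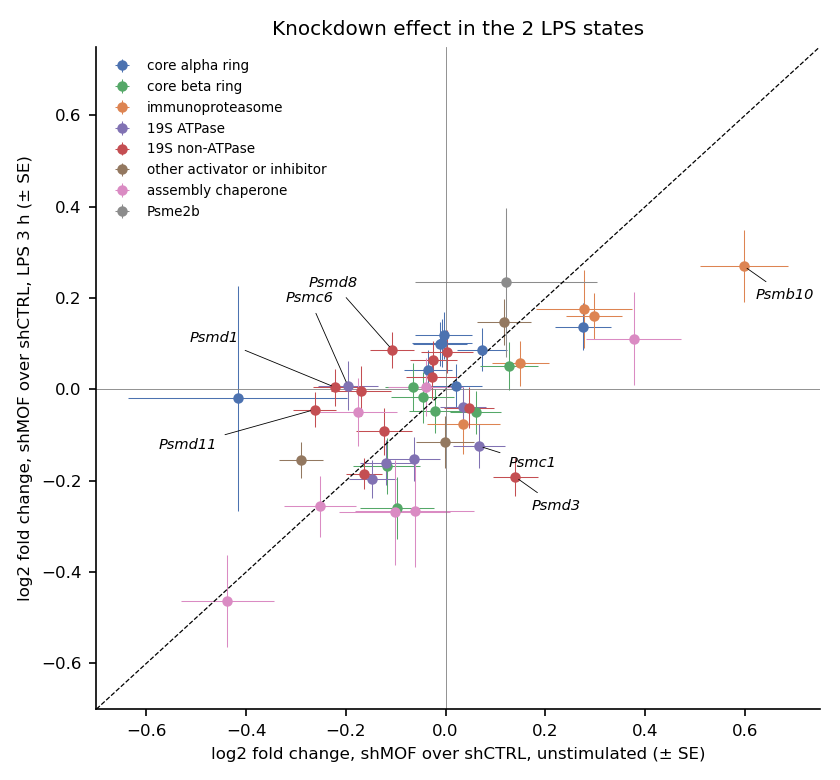
Log2 fold change, shMOF over shCTRL, unstimulated (horizontal) against LPS 3 h (vertical) for the 48 genes other than Psmc3ip, with SE as bars, coloured by class; the dashed line marks equal effects. The 7 named genes differ between states at an adjusted p of 0.05, with Psmd3 at 0.14 and -0.19 in the lower right.

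The knockdown effect of 7 members differed between LPS 3 h and unstimulated cells, 4 more positive and 3 more negative with LPS, or 14.3% against 30.6% of all genes tested. The 4 compare with 18.2% of all genes and the 3 with 12.4%. At mean normalized counts of 1000 or more it was 17.5% of members against 42.3% of all such genes, made up of 29.3% more positive and 13.0% more negative with LPS. Besides Psmb10, the genes are all of the 19S particle, where 6 of 17 members differed, or 35.3%. That share is near the 30.6% of all genes. It is below the 42.3% at mean normalized counts of 1000 or more, where all 17 lie. Apart from Psmb10 and Psmd3, each of the 7 genes was called in 1 state only.

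Other activators went different ways. Psme3, which encodes the nuclear activator PA28 gamma, fell in both states while the PA28 alpha gene rose, with -0.29 (SE 0.04, BH-adjusted p = 5.55e-10) and -0.16 (SE 0.04, BH-adjusted p = 3.52e-04) per the authors' deposited tables. Psme4, the activator PA200, had 0.12 (SE 0.05, BH-adjusted p = 0.0697) and rose by 0.15 (SE 0.05, BH-adjusted p = 0.00766) at LPS 3 h per the authors' deposited tables. Psmf1, the regulator PI31, had no call.

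Assembly chaperones held the largest fall that passed among proteasome genes. Of 7, 2 fell and 1 rose unstimulated, against 17.8% and 21.3% of all genes, and 3 fell with none rising at LPS 3 h, against 20.0% and 28.1%. Psmg2, which with Psmg1 helps the alpha ring form, fell in both states, with -0.44 (SE 0.09, 0.739-fold, BH-adjusted p = 2.03e-05) and -0.46 (SE 0.10, 0.725-fold, BH-adjusted p = 1.86e-05) per the authors' deposited tables. Psmg1 had -0.10 (SE 0.11) unstimulated and fell with -0.27 (SE 0.12, BH-adjusted p = 0.0416) at LPS 3 h per the authors' deposited tables. Psmd5, a chaperone of the 19S base, fell in both, with -0.25 (SE 0.07, BH-adjusted p = 0.00208) and -0.26 (SE 0.07, BH-adjusted p = 4.57e-04) per the authors' deposited tables. Psmg4, a chaperone of the 20S core, rose unstimulated by 0.38 (SE 0.10, BH-adjusted p = 3.62e-04) per the authors' deposited table and had 0.11 (SE 0.10) at LPS 3 h. Psmg3, its partner, and the base chaperone genes Psmd9 and Psmd10 had no call. The 4 Psmg genes had mean normalized counts from 164.7 to 256.2.

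**Figure D4:**
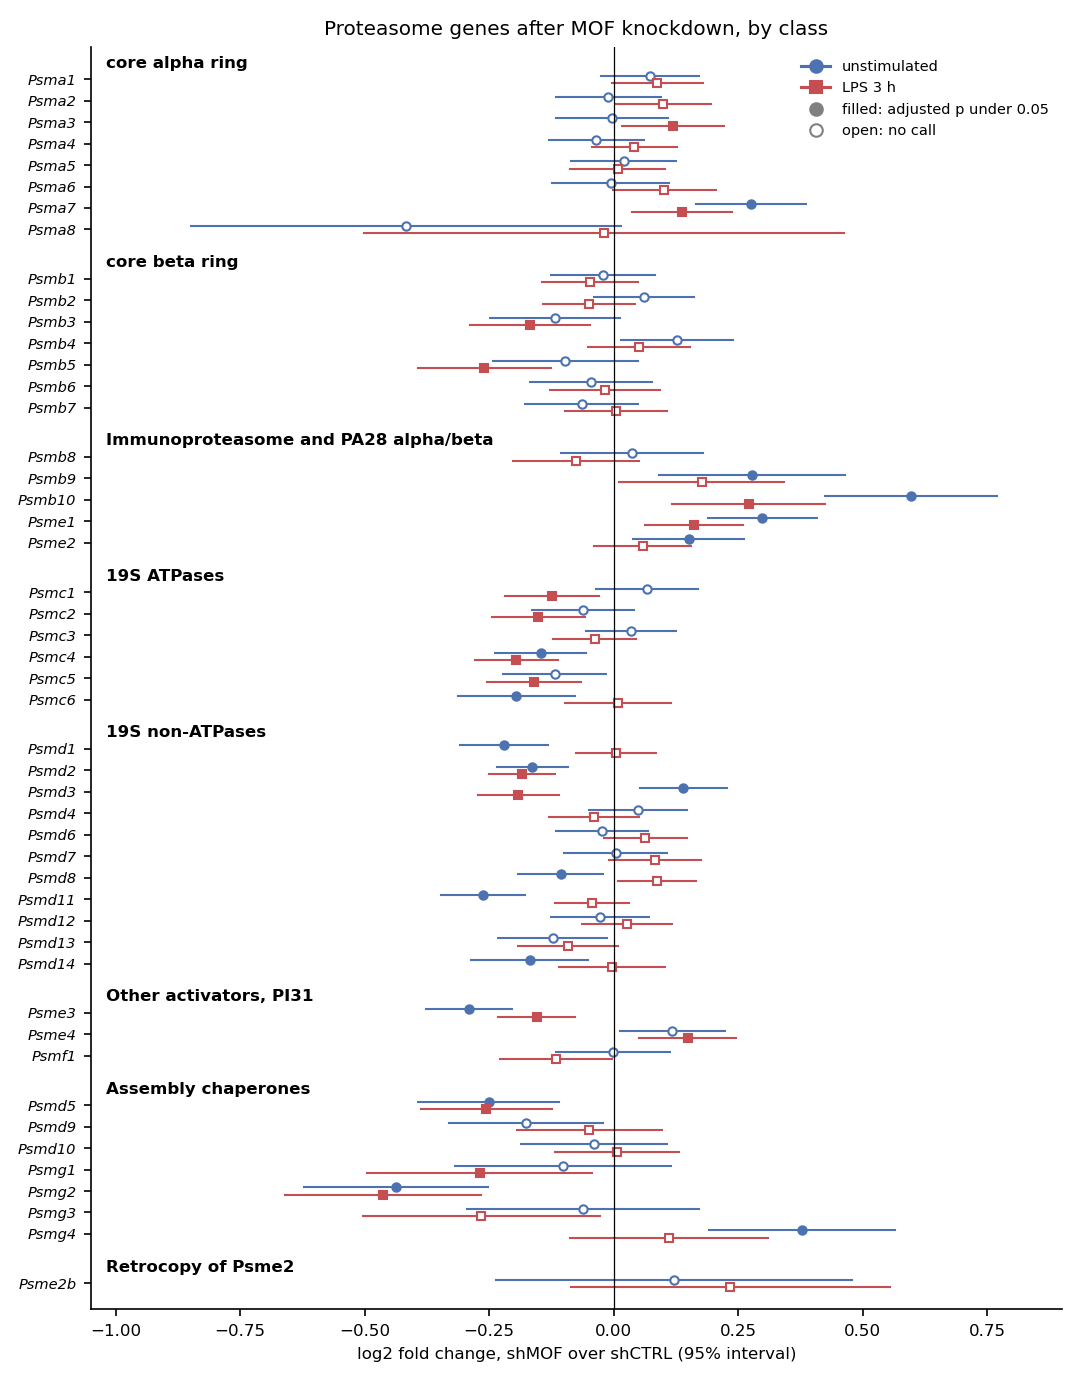
Log2 fold change, shMOF over shCTRL, with its 95% interval for the 48 genes other than Psmc3ip, by class, unstimulated (circles) and at LPS 3 h (squares); filled symbols have an adjusted p under 0.05. Most intervals lie close to 0, and the immunoproteasome genes Psmb9, Psmb10, Psme1 and Psme2 lie to the right unstimulated.

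Psmc3ip, taken by its name and at a mean normalized count of 82.9, had an estimate larger in size than any proteasome gene in both states. Its log2 fold change was -1.21 (SE 0.20, BH-adjusted p = 2.94e-08) unstimulated and -0.71 (SE 0.22, BH-adjusted p = 0.00306) at LPS 3 h per the authors' deposited tables. At LPS 3 h its 95% interval, -1.14 to -0.29, overlapped that of Psmg2, -0.66 to -0.27. Exons of Psmc3ip share 385 bases with Mlx on the other strand.

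Genes that work with the proteasome were read from 4 lists, whose counts stand beside shares of all genes of 21.3% higher and 17.8% lower unstimulated and 28.1% and 20.0% at LPS 3 h. At mean normalized counts of 1000 or more these shares are 34.6% and 20.9%, then 48.5% and 17.8%. Of 13 accessory and bound factors 5 rose and 3 fell unstimulated, and 7 rose and 1 fell at LPS 3 h. The proteasome-binding genes Zfand5 and Ube3c, a ubiquitin ligase, rose in both states, Zfand5 by 0.39 (SE 0.05) and 0.43 (SE 0.05), and Ube3c by 0.40 (SE 0.06) and 0.49 (SE 0.06) per the authors' deposited tables. Shfm1, which encodes the small 19S subunit Sem1, rose by 0.34 (SE 0.06) and 0.30 (SE 0.05), and the phosphatase gene Ublcp1 fell with -0.25 (SE 0.08) and -0.58 (SE 0.10) per the authors' deposited tables.

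Of 12 shuttle factors and ubiquitin genes 4 rose and 3 fell in each state, shares near those of all genes. The shuttle gene Ubqln1 fell in both, with -0.24 (SE 0.05) and -0.17 (SE 0.05) per the authors' deposited tables. Ddi2, the protease that activates the proteasome gene regulator NRF1, had -0.17 (SE 0.07, BH-adjusted p = 0.0537) and fell at LPS 3 h with -0.52 (SE 0.08, BH-adjusted p = 3.40e-10) per the authors' deposited tables, and its difference passed (-0.35, SE 0.11, BH-adjusted p = 0.00668). Uba6, a ubiquitin-activating enzyme, rose at LPS 3 h by 0.26 (SE 0.05) per the authors' deposited table.

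Of 12 regulators of proteasome gene transcription 5 rose and none fell unstimulated, and 6 rose and 2 fell at LPS 3 h. All but Maff, Ngly1 and Hsf1 have mean normalized counts of 1000 or more. Among all genes at that level 34.6% were higher and 20.9% lower unstimulated, and 48.5% and 17.8% at LPS 3 h. The small MAF genes, partners of NRF1 and NRF2, moved at LPS 3 h, Maff rising by 0.97 (SE 0.08), Mafk by 0.55 (SE 0.09) and Mafg falling with -0.25 (SE 0.04) per the authors' deposited table. Unstimulated, Mafg rose by 0.12 (SE 0.04, BH-adjusted p = 0.00620) per the authors' deposited table, so it was called in opposite directions. Maff and Mafk had no call unstimulated. Foxo3 rose by 0.49 (SE 0.08) unstimulated and fell with -0.67 (SE 0.10) at LPS 3 h per the authors' deposited tables. Nfe2l1, which encodes NRF1 and was chosen after its values were seen, had 0.08 (SE 0.05, BH-adjusted p = 0.209) and rose by 0.25 (SE 0.04, BH-adjusted p = 1.72e-08) at LPS 3 h per the authors' deposited tables.

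On the interferon side 12 of 19 regulators and class I loading genes rose and 1 fell unstimulated, and 12 rose and 3 fell at LPS 3 h, with medians of 0.24 and 0.23. All 19 have mean normalized counts above 1000, where 34.6% of genes were higher unstimulated and 48.5% at LPS 3 h. Irf1, a factor that binds interferon-stimulated elements, rose by 0.74 (SE 0.08) and 1.13 (SE 0.07) per the authors' deposited tables. Ifngr1, the ligand-binding chain of the interferon gamma receptor, rose by 0.53 (SE 0.03) and 0.45 (SE 0.03) per the authors' deposited tables. Ifngr2, the other chain of that receptor, which was chosen after its values were seen, fell in both states, with -0.46 (SE 0.04) and -0.51 (SE 0.04) per the authors' deposited tables. The receptor kinase genes Jak1 and Jak2 rose at LPS 3 h, by 0.43 (SE 0.03) and 0.65 (SE 0.04) per the authors' deposited table. For Irf1 the effect was larger with LPS (difference 0.39, SE 0.10, BH-adjusted p = 0.00127), where that of Psmb10 was smaller.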

How the data were processed

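RNA-seq of 12 mouse macrophage libraries was read from 2 tables, 1 for each LPS state, with no value per library. Per the submitters' processing notes the authors worked with DESeq2 (version not stated) and mm10. Which aligner, counter and annotation they used is not given in the sources used here. Columns that the authors deposited, per the file headers, are a mean normalized count (a signal over libraries that are not named, identical in both tables), a log2 fold change with its SE, a Wald statistic (a score), a p-value and an adjusted p. The Wald statistic matched fold change divided by SE within 1.53e-13, and the adjusted p a Benjamini-Hochberg adjustment to within 1.39e-15. The authors left 277 genes of the LPS table with no adjusted p, none of them a member. Calls are the authors' at an adjusted p of 0.05.

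The difference between states was tested as one log2 fold change minus the other, divided by the square root of the sum of both squared SEs, with a normal p (two-sided) and adjusted by Benjamini-Hochberg over the 12994 genes at mean normalized counts of 10 or more, taking the errors as uncorrelated. The code was tested on simulated data. Intervals are 95% normal intervals. Members and lists were chosen with earlier results of these data known. Named genes are all members, Kat8, and per list up to 4 with the smallest deposited p, 1 of which is not reported here; Tap1, Nfe2l1, Ifngr2 and the overlapping genes were added after their values were seen. Coordinates and exons are from GENCODE M21 (GRCm38), joined on Ensembl gene IDs for all 49 members, and promoters from RefSeq on GRCm38.p6, found for 41. Alternatives were centring, other sets of genes for adjustment, a threshold of 0.01, a test against changes of up to 0.25 on the log2 scale and other minimum means. Python 3.11.15 with scipy 1.17.1 was used.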

Additional observations from a re-analysis of the deposited data

Results flagged for a closer look

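The knockdown effect differed between LPS 3 h and unstimulated cells, by the test of the difference, for 7 members. The difference on the log2 scale, LPS 3 h minus unstimulated, was -0.33 for Psmd3, -0.33 for Psmb10, -0.19 for Psmc1, 0.19 for Psmd8, 0.20 for Psmc6, 0.22 for Psmd11 and 0.23 for Psmd1. At a threshold of 0.01 the calls for Psmb10, Psmc1 and Psmc6 were lost. As the tables give no values per library, whether 1 library carries any of these was not tested.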

How the results depend on the processing

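The directions of calls held, and no called value changed sign under the alternatives run. Tested against changes of up to 0.25 on the log2 scale, calls went from 18 to 2 unstimulated (1 higher, Psmb10, and 1 lower, Psmc3ip) and from 18 to 0 at LPS 3 h (0 higher and 0 lower), so nearly all calls rest on changes that such a test does not tell from small ones. At LPS 3 h the number higher went from 5 to 3 after centring and to 3 at a threshold of 0.01. It was 6 when adjusted over genes at mean normalized counts of 50 or more, which added Psmd8 (0.09, BH-adjusted p = 0.0496). Psmd8 was then called in opposite directions in the 2 states, as Psmd3 was. Centring also moved the number lower from 11 to 14 unstimulated, adding Psmc5, Psmd13 and Psmd9, and from 13 to 16 at LPS 3 h, adding Psmd13, Psmf1 and Psmg3. For the difference, a threshold of 0.01 left 4 calls, 1 of them lower. Centring moved fold changes by 0.03 in both states, and class medians moved by less than the median SE of their members under every alternative run. No paired analysis was possible because the tables hold no values per library, and for the same reason no replicate could be left out. Depth per library is unknown, and precision is known through the SE only.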
